A study of Mus musculus with 12 samples.

Results

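Bcor and Zeb2 encode transcriptional repressors, and each locus also gives rise to noncoding RNA. The custom array used here carries 1 probe for a curated noncoding record of Bcor and 1 probe for Zeb2os, the long noncoding RNA annotated on the opposite strand within Zeb2. These 2 of 97836 probes were found by their names on the array, gi|354721113|ref|NR_045434.1| for the Bcor record and NR_110572.1 for Zeb2os. They had been selected on their measured values, since earlier results of these data showed lower signal of both after cobalt chloride (CoCl2) in cells with intact Hif1a. That difference, and every comparison that uses the same arrays, is therefore given as a description without a test. The response of both probes in cells with disrupted Hif1a compares other arrays and was tested, although the fit takes its estimate of the spread from all 12 arrays, those of the selection included. Results of the whole series were known when the probes were chosen, so this test is not free of the selection.

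BCOR is a corepressor that is recruited by the transcription factor BCL6 and also belongs to a variant Polycomb complex that marks chromatin by histone ubiquitination. ZEB2 is a zinc-finger protein that binds E-box sequences, represses E-cadherin and other epithelial genes, and has been tied to changes of state in mesenchymal and smooth muscle cells. The antisense RNA at Zeb2 is known for keeping an intron in Zeb2 transcripts, which favours translation of the protein. HIF-1 is the transcription factor that accumulates when oxygen is low or when cobalt blocks the enzymes that mark its alpha subunit for degradation, and it binds short sites with the core ACGTG or GCGTG.

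Sequence ahead of both genes is shown because each is a repressor gene that carried a noncoding record with lower signal after a HIF-stabilising agent. A further reason is that Zeb2os overlaps part of the Zeb2 promoter region. RefSeq promoter entries of build GRCm38.p6 held 2 start sites of Bcor and 4 of Zeb2, and none of Zeb2os. Of the 4 Zeb2 start sites, 2 lay inside the span of Zeb2os, and the whole of Zeb2os lay inside the span of Zeb2. The Bcor line below gives the 89 bases ahead of the gene (chrX:12160517-12160605, minus strand). The Bcor start sites of these entries, at chrX:12160355 and chrX:12160346, lie within the span of the gene and do not adjoin this stretch. The Zeb2 line gives the 250 bases ahead of the outermost start site (chr2:45117443-45117692, minus strand), outside the span of Zeb2os.
Bcor: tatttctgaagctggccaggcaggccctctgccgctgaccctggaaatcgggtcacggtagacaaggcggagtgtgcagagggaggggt
Zeb2: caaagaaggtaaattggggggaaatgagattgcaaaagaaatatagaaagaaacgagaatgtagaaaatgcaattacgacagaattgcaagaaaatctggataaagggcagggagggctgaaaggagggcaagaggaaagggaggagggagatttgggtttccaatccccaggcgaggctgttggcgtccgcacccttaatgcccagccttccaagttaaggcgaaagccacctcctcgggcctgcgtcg

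Both strands of the 250 bases ahead of each start site were searched for the HIF core in both its forms, for the palindromic E-box CACGTG, in which the first form of that core is contained, and for CACCTG, the kind of E-box to which ZEB proteins bind. GCGTG occurred once ahead of both Bcor start sites, which share the same match, and once ahead of the 2 Zeb2 start sites inside the span of Zeb2os. It was found ahead of neither of the other 2 Zeb2 start sites, and the other motifs were found ahead of none of the 6. GCGTG is common, with a match in 28.2% of 32851 promoters of the same length, against 16.6% for ACGTG, 17.2% for CACCTG and 6.02% for CACGTG. The HIF core in either form had a match in 38.6% of these promoters. The Bcor match lies within the span of the gene, between the stretch shown above and the start sites. Both matches are shown with 10 bases on each side and the motif in capitals. They are at chrX:12160427-12160451 for Bcor and at chr2:45113305-45113329 for Zeb2, both on the minus strand.
Bcor match: aagggaaagaGCGTGaagtggctct
Zeb2 match: ggggggggggGCGTGgagaagggag

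Total RNA came from cultured VSMCs (vascular smooth muscle cells) that were taken from male mice, in 4 groups of 3 arrays, 1 sample per array. Hif1afl/fl cells, which the study calls WT and which carry floxed, intact Hif1a alleles, are called floxed here. Hif1a△SMC cells, in which HIF1α was disrupted in VSMCs, are called deleted. Both genotypes received 150 µM CoCl2 or the same volume of phosphate-buffered saline (PBS) for 24 h. The labels give neither the driver of the recombination nor the age of the mice, and they do not say whether arrays of a group are separate cultures or animals, so each p-value speaks only of the spread among these arrays, which may be technical.

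The 3 arrays of deleted cells with CoCl2 stood apart. On them 51.9% to 58.5% of probes were well above background (the scanner software's test of a spot against its surroundings), against 67.7% to 82.7% on the other 9 arrays. Their 75th percentiles of log2 signal were 8.20 to 8.39, against 9.14 to 9.62 elsewhere. Each array was scaled by this percentile, and the levels below are log2 signal minus it. Of the 70909 probes tested, 52.8% passed the threshold (limma, Benjamini-Hochberg adjusted p below 0.05) for CoCl2 in deleted cells and 67.1% for deletion under CoCl2, against 4.99% for CoCl2 in floxed cells and 1.52% for deletion under PBS. Of the calls for CoCl2 in deleted cells 62.3% were lower, and 8 other scalings of the arrays moved that share between 52.8% and 99.2%. For deletion under CoCl2 the share was 54.3%, with 38.7% to 99.8% under the other scalings. Among probes well above background on all 12 arrays the shares were 40% and 32.3%, and without a filter 50.5% and 49.9%. No probe named for Hif1a was analysed, so the disruption itself was not checked.

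The noncoding Bcor transcript was at its highest with PBS and at its lowest with CoCl2 in both genotypes. Its level was -0.77, -0.97 and -1.55 on the 3 floxed PBS arrays, and -2.43, -2.67 and -2.43 on the 3 floxed CoCl2 arrays. It was -0.78, -0.50 and -0.59 on the deleted PBS arrays, and -1.76, -1.75 and -2.28 on the deleted CoCl2 arrays. Each CoCl2 array was lower than every PBS array of either genotype. The group means were -0.62 ± 0.14 (SD, n = 3) in deleted cells with PBS, -1.09 ± 0.40 in floxed cells with PBS, -1.93 ± 0.30 in deleted cells with CoCl2 and -2.51 ± 0.14 in floxed cells with CoCl2. In this order the 2 PBS groups overlapped, and no other neighbouring groups did.

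In deleted cells Bcor fell 2.48-fold with CoCl2 (-1.31 on the log2 scale with an SE of 0.22, 3 arrays per group, limma adjusted p = 0.0006844). All 3 treated arrays were lower than the 3 PBS arrays, as was the case for 34.8% of all probes tested, and 32.9% of all probes were called lower in this comparison. The median change over all probes was -0.14, and 15.8% of probes had at least as large a fall as Bcor. In floxed cells the level was 2.66-fold lower with CoCl2 (log2 difference -1.41, SE 0.22), again without overlap. There 11% of all probes had lower groups without overlap, 2.69% were called lower, and 1.1% were at least as much lower as Bcor, which repeats how the probe was chosen.

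The Bcor probe lay on 2 spots of each array. Their log2 signals differed by 0.02 to 0.55, with a median of 0.087, and the widest gap was on floxed CoCl2 array 3. Both spots were well above background on all 12 arrays, with a spot signal 5.26 to 19.8 times the local background. Taken alone, the spots gave a change in deleted cells of -1.31 and -1.30. Before scaling, the processed intensity of the first spot was 279 to 381 in floxed cells with PBS and 113 to 145 with CoCl2. It was 342 to 406 in deleted cells with PBS and 60.9 to 106 with CoCl2. The fall with CoCl2 was thus present in both genotypes before and after scaling. The probe's own sequence is not in the sources used here, so whether it also detects coding Bcor transcripts, of which RefSeq curates 5 beside this 1 noncoding record, was not determined.

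**Figure D1:**
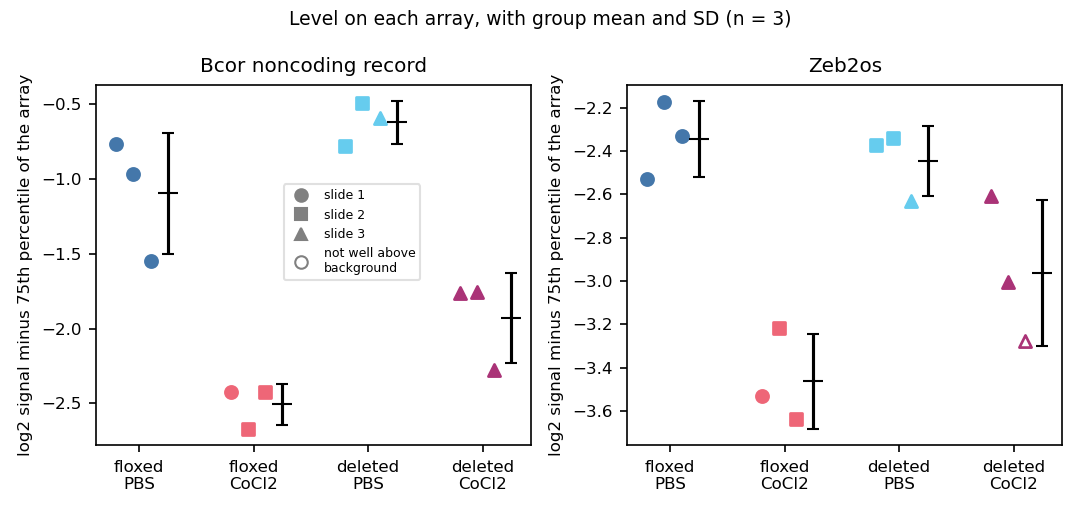
Level of the Bcor noncoding record (left) and of Zeb2os (right) on each of 12 arrays, as log2 signal minus the 75th percentile of the array, by genotype and treatment. Bars give the group mean and SD (n = 3), marker shapes the slide, and the open marker the 1 array on which Zeb2os was not well above background. Bcor is lower on every CoCl2 array than on any PBS array, while the 2 deleted groups of Zeb2os overlap.

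Zeb2os had its lowest levels in floxed cells with CoCl2. It was at -2.53, -2.18 and -2.33 on the floxed PBS arrays, and at -3.53, -3.22 and -3.64 on the floxed CoCl2 arrays. In deleted cells it was at -2.37, -2.34 and -2.63 with PBS, and at -2.61, -3.01 and -3.28 with CoCl2. The floxed groups were separate, whereas the highest deleted CoCl2 array lay just above the lowest deleted PBS array. Floxed cells with PBS had a mean of -2.35 ± 0.18 (SD, n = 3), followed by -2.45 ± 0.16 in deleted cells with PBS, -2.96 ± 0.34 in deleted cells with CoCl2 and -3.46 ± 0.22 in floxed cells with CoCl2, and each group in this order overlapped the next.

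In deleted cells Zeb2os fell 1.43-fold with CoCl2 (-0.51 on the log2 scale with an SE of 0.20, 3 arrays per group, limma adjusted p = 0.0457), close to the threshold. A fall of at least this size was shown by 36.5% of all probes, and 32.9% of all probes were called lower. The call was lost in 17 of 29 alternative analyses, among them quantile normalization (log2 change -0.06, adjusted p = 0.834), slide as a block (-0.33, 0.412) and the omission of deleted CoCl2 array 3 (-0.36, 0.151). With only the 6 arrays of deleted cells in the fit, which leaves out the floxed arrays, the limma adjusted p was 0.0923 for Zeb2os and 0.00478 for Bcor. Results of the series were known when the probes were chosen, so these values are not free of the selection. Over the 29 alternatives the change of Zeb2os ran from -1.59 to -0.06 and the adjusted p from 0.000359 to 0.834. In floxed cells the level was 2.17-fold lower with CoCl2 (log2 difference -1.12, SE 0.20), and 2.18% of all probes were at least as much lower.

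Zeb2os was measured by a single spot close to the detection limit. Its spot signal was 3.93 to 11.4 times the local background. It was well above background on 11 of 12 arrays, the exception being deleted CoCl2 array 3. The processed intensity before scaling was 109 to 160 in floxed cells with PBS, 51.6 to 78.0 in floxed cells with CoCl2, 99.4 to 112 in deleted cells with PBS and 31.5 to 48.3 in deleted cells with CoCl2. Before scaling the treated arrays were thus lower than the PBS arrays in both genotypes, including the deleted cells whose scaled values overlapped. In deleted cells the 75th percentile of the whole array was lower as well, at 8.20 to 8.39 with CoCl2 against 9.14 to 9.27 with PBS. The unscaled values do not set the probe apart from that drop. RefSeq lists 2 records of Zeb2os, and the other record has no probe with its name.

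The effect of CoCl2 in deleted cells minus that in floxed cells was 0.11 (SE 0.31) for Bcor and 0.60 (SE 0.28) for Zeb2os. Both values use the floxed arrays and were not tested, and both depended on the scaling. Scaled to 4 spike-in (E1A) control probes that moved together, chosen after seeing the data, the changes in floxed and deleted cells were -1.57 and -2.38 for Bcor, and -1.27 and -1.59 for Zeb2os. With quantile normalization they were -1.57 and -1.05 for Bcor, and -1.25 and -0.06 for Zeb2os. Without any scaling, a setting added after seeing the data, they were -1.53 and -2.21 for Bcor, and -1.23 and -1.42 for Zeb2os. For Zeb2os the effect was larger in deleted cells only with those 4 control probes and without any scaling. For Bcor it was also larger there with the 4 brightest control probes, a planned scaling (-1.60 in floxed and -1.81 in deleted cells). Which genotype had the larger effect was therefore not settled for Bcor, and for Zeb2os it turned only in settings chosen after seeing the data.

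Without CoCl2 the difference between deleted and floxed cells was -0.10 (SE 0.20) for Zeb2os and 0.47 (SE 0.22) for Bcor. Without floxed PBS array 3 the Bcor value was 0.24, and the arrays of both genotypes overlapped for both transcripts. Under CoCl2 Bcor was 1.49-fold higher in deleted than in floxed cells (log2 difference 0.58, SE 0.22) without overlap, as were 30.9% of all probes. Zeb2os was 1.42-fold higher (0.50, SE 0.20) with overlapping arrays, and without deleted CoCl2 array 1 the log2 difference was 0.32. The direction turned in 1 of 31 alternatives for Bcor and in 1 of 28 for Zeb2os. That was the scaling to the 4 control probes that moved together, chosen after seeing the data. It put Bcor at -0.63 and Zeb2os at -0.70 in deleted relative to floxed cells. The intensities before scaling were also lower in deleted than in floxed cells with CoCl2. Relative to the median of all probes, which moved between -1.17 and 0.48 under the other scalings, Bcor lay 0.54 to 0.90 higher and Zeb2os 0.38 to 1.09 higher. Relative to the median of probes well above background on all 12 arrays Bcor lay 0.16 higher, and without a filter Bcor lay 0.44 and Zeb2os 0.36 higher.

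**Figure D2:**
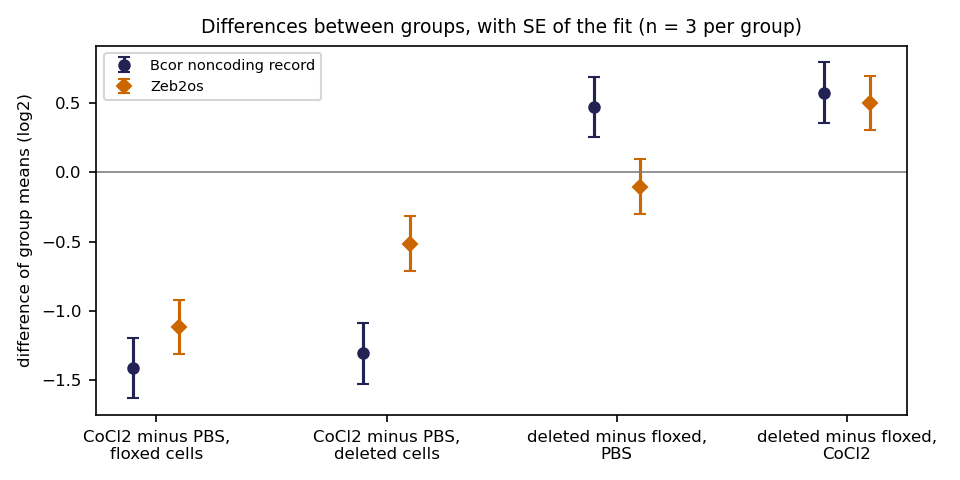
Difference of group means (log2) for the Bcor noncoding record (circles) and Zeb2os (diamonds) in 4 comparisons, with the SE of the limma fit on 12 arrays (3 per group). Both transcripts lie below 0 with CoCl2 in both genotypes, Bcor at -1.41 and -1.31 and Zeb2os at -1.12 and -0.51.

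The arrays lay on 3 slides, and treatment was only partly spread over them. No slide held floxed and deleted arrays of the same treatment, so genotype and slide cannot be told apart in either deletion comparison alone. On slide 1 the single floxed CoCl2 array was lower than the mean of the 3 floxed PBS arrays by -1.33 for Bcor and -1.19 for Zeb2os. On slide 3 the mean of the 3 deleted CoCl2 arrays differed from the single deleted PBS array by -1.34 for Bcor and -0.33 for Zeb2os. On slide 2 the 2 deleted PBS arrays were higher than the 2 floxed CoCl2 arrays by 1.91 for Bcor and 1.07 for Zeb2os. The lower level with CoCl2 was thus seen within each slide that held both treatments of a genotype, and for Bcor it kept its size. Since CoCl2 arrays came after PBS arrays in position on both of these slides, treatment and position within a slide cannot be told apart. With slide as a block Bcor still fell in deleted cells (-1.34, limma adjusted p = 0.0227).

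**Figure D3:**
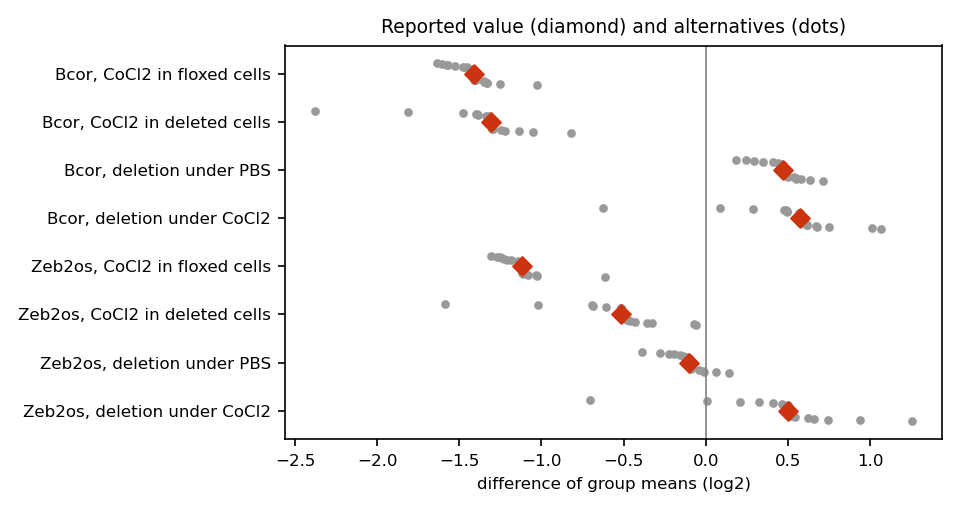
Reported log2 differences (diamonds) of the Bcor noncoding record and Zeb2os, with the values from the alternative analyses (dots), for 4 comparisons; dots are spread vertically only for legibility. All dots for CoCl2 in either genotype lie below 0, from -2.38 to -0.82 for Bcor and from -1.59 to -0.06 for Zeb2os in deleted cells. With deletion under CoCl2, 1 of 31 dots for Bcor and 1 of 28 for Zeb2os lie below 0, at -0.63 and -0.70.

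Other transcripts of the same loci were sought to see whether they moved with the noncoding RNAs. Besides the 2 described, 13 probes were tied to Bcor, Zeb2, their relatives or the 10 genes on each side of either locus, for 11 gene symbols, and 7 of them were bright enough to be tested. None of the 7 passed in floxed cells with CoCl2 (limma; 1 had an unadjusted p below 0.05) or with deletion under PBS (2 had), against 4.99% and 1.52% of all probes. In deleted cells 3 of 7 fell with CoCl2 and none rose, where 32.9% of all probes fell and 19.9% rose. With deletion under CoCl2 2 were lower and 1 was higher, where 36.4% of all probes were lower and 30.6% higher. The median log2 differences in the order of these 4 comparisons were 0.083, -0.50, 0.12 and -0.35 for the 7 probes, and 0.0205, -0.14, 0.0049 and 0.037 for all probes.

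A RIKEN cDNA clone of the Zeb2 locus, D130016B08, was the probe that came closest to reporting Zeb2 itself, although a clone may represent some other RNA from this locus and not the coding mRNA. It was at -2.26, -1.46 and -1.88 in floxed cells with PBS, and at -2.16, -2.39 and -2.42 with CoCl2. In deleted cells it was at -1.84, -1.32 and -1.95 with PBS, and at -1.17, -1.0 and -1.94 with CoCl2. The arrays of the 2 treatments overlapped in both genotypes. The log2 change with CoCl2 was -0.46 (SE 0.28, limma adjusted p = 0.484) in floxed cells and 0.33 (SE 0.28, adjusted p = 0.335) in deleted cells, and the difference between the effects was 0.79 (SE 0.39, adjusted p = 0.172). Under CoCl2 the clone was 1.93-fold higher in deleted than in floxed cells (0.95, SE 0.28, limma adjusted p = 0.0102) without overlap. In that comparison 30.6% of all probes were called higher, and 30.9% were higher without overlap. The call of the clone was lost in 4 of 29 alternatives, with adjusted p from 0.0011 to 0.497. Its value turned to -0.25 when scaled to the 4 control probes that moved together.

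On the X chromosome, a clone (9930001L01) of Med14, which encodes a backbone subunit of Mediator, the 10th gene from Bcor in the RefSeq order, was far brighter than the array's 75th percentile. It was at 1.70, 1.39 and 1.38 in floxed cells with PBS, and at 1.24, 0.72 and 0.85 with CoCl2. In deleted cells it was at 2.02, 2.01 and 1.72 with PBS, and at 1.69, 1.32 and 1.15 with CoCl2. The treated arrays were lower than the PBS arrays in both genotypes. So were those of 11% of all probes in floxed cells and of 34.8% in deleted cells. The log2 difference was -0.55 (SE 0.20, limma adjusted p = 0.154) in floxed cells. In deleted cells, where 32.9% of all probes were called lower, the clone fell by 0.53 (SE 0.20, limma adjusted p = 0.040). The latter call was lost in 12 of 30 alternatives, with adjusted p from 0.000281 to 0.332. Among them were the omission of either deleted PBS array 1 (-0.47, adjusted p = 0.121) or deleted CoCl2 array 3 (-0.41, 0.122).

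Gm39496, a predicted noncoding gene 7 places from Bcor, had 3 probes, of which 1 passed as lower with CoCl2 in deleted cells. The probe for record XR_878060 was between -3.09 and -2.50 on the 9 arrays outside deleted cells with CoCl2, and at -5.51, -4.28 and -5.03 in that group, where it was not well above background on any array. It was at least 1.38-fold lower with CoCl2 in deleted cells (limma adjusted p = 0.000236) and at least 1.49-fold lower in deleted than in floxed cells under CoCl2 (adjusted p = 6.38e-05). In floxed cells its log2 change with CoCl2 was 0.11 (SE 0.27, adjusted p = 0.937). The lower bounds set the mean of the bright group against the lowest signal of any probe well above background on each dim array. The probes for the records XR_878059 and XR_878057 did not pass in deleted cells (-0.17 and -0.50, adjusted p = 0.599 and 0.224). Their means in deleted cells with PBS, -3.84 and -3.61, were already below the -3.40 at which the lowest detected probes of the CoCl2 arrays lay. The size of a fall could therefore not be measured on them. XR_878057 passed as lower with the 4 brightest E1A control probes (-1.01, adjusted p = 0.00601) and without deleted CoCl2 array 2 (-0.97, 0.00389). With quantile normalization it was at 0.26 (0.463). Under quantile normalization XR_878059 was higher in deleted than in floxed cells under CoCl2 (0.63, adjusted p = 0.038), against -0.35 as reported.

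Near Zeb2, a clone of Arhgap15os (A430092G05), an opposite-strand gene 8 places away, was between -3.92 and -1.86 on the 9 other arrays and at -4.57, -3.51 and -4.41 in deleted cells with CoCl2. Its change with CoCl2 there was -1.63 (SE 0.47, limma adjusted p = 0.0126), with 1 of 3 arrays well above background, so its size is in part not a measured one, and its difference with deletion under CoCl2 was -1.54 (SE 0.47, adjusted p = 0.0125). These calls were lost in 3 of 29 and 4 of 28 alternatives, with adjusted p up to 0.11 and 0.212. Without floxed CoCl2 array 2 or 3 the second was -1.16 (adjusted p = 0.0594) or -1.28 (0.0533), and without deleted CoCl2 array 1 the first was -1.43 (0.050). Its floxed change with CoCl2 was -0.35 (SE 0.47, adjusted p = 0.843). Gm39806, 5 places from Zeb2, passed in none of the 4 comparisons, with differences from -0.63 to 0.39.

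**Figure D4:**
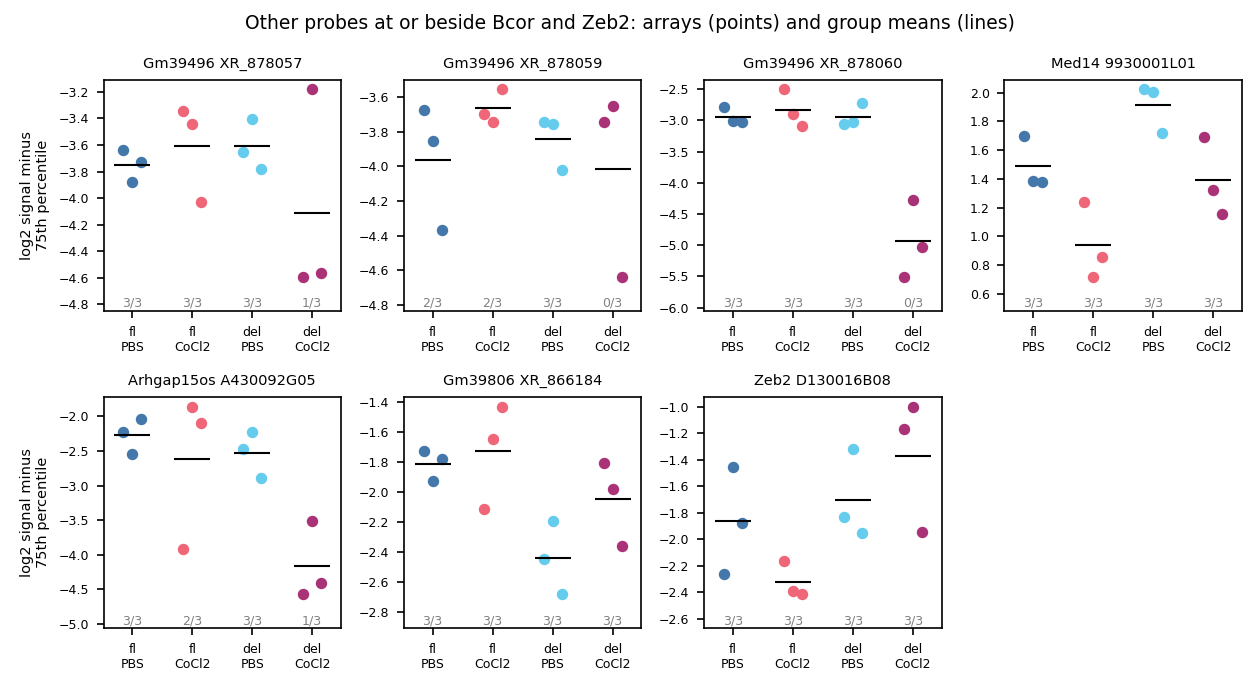
Log2 signal minus the 75th percentile of the array for the 7 tested probes at or beside Bcor and Zeb2, with 1 point per array and a line at each group mean (fl, floxed; del, deleted). Grey fractions give the arrays of 3 on which the probe was well above background. Of the 3 Gm39496 probes only XR_878060 is separate in deleted cells with CoCl2, and the Med14 clone is lower with CoCl2 in both genotypes.

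Partner genes of both repressors were hardly represented by named probes. Of 14 listed genes of the BCOR Polycomb complex 1 was matched, Bcor itself. Of 26 listed genes of ZEB function and epithelial-mesenchymal transition 3 were matched, of 30 NuRD and corepressor genes 1, of 12 hypoxia-linked repressors 1, and of 21 HIF target genes 0. Apart from the Bcor probe and Zeb2os, these lists left 3 tested clones, those of Zeb2, Ncor1 and Kdm4c, as the clone of Ovol2 was too dim. The clone of Ncor1, a nuclear receptor corepressor gene, changed by 0.14 (SE 0.20) with CoCl2 in floxed cells and by 0.29 (SE 0.20) in deleted cells, with adjusted p of 0.852 and 0.235. The clone of Kdm4c, a histone demethylase gene, changed by -0.05 (SE 0.13) and 0.13 (SE 0.13), with adjusted p of 0.94 and 0.439. None of the 3 passed with CoCl2 in floxed or deleted cells or with deletion under PBS (limma; 0 at an unadjusted p below 0.05 in each), and 1, the Zeb2 clone, passed with deletion under CoCl2, where 52.8% of all probes passed with CoCl2 in deleted cells and 67.1% with deletion under CoCl2.

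Smooth muscle identity could be checked on 3 of 15 listed markers by 4 probes, and all 4 were well above background on all 12 arrays. Carmn, a noncoding RNA enriched in smooth muscle, was at 0.63 in floxed cells with PBS, 0.50 with CoCl2, 0.80 in deleted cells with PBS and 0.29 with CoCl2. None of its differences passed, the nearest being CoCl2 in deleted cells (-0.50, SE 0.21, limma adjusted p = 0.0614). Of the 2 clones of Synpo2, an actin-binding protein gene, 1 fell with CoCl2 in deleted cells (-0.53, SE 0.18, limma adjusted p = 0.0311). The other did not pass there (0.47, SE 0.33, limma adjusted p = 0.244), and 32.9% of all probes were called lower in this comparison. The clone of Cald1, which encodes caldesmon, was higher with deletion under CoCl2 (0.69, SE 0.19, adjusted p = 0.00723), and the first Synpo2 clone was lower (-0.60, SE 0.18, adjusted p = 0.0136), in a comparison where 67.1% of all probes passed. Of 10 listed markers each of endothelial cells, macrophages and fibroblasts none was matched, so the part of other cells, or of fewer cells against less RNA per cell, was not tested.

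The 2 transcripts were set beside their classes. Of 67 other probes for opposite-strand genes 42 were tested, and 2 passed with CoCl2 in floxed cells, both lower: Sox5os4 (-1.41, SE 0.36, limma adjusted p = 0.045) and Gata6os (-1.36, SE 0.26, adjusted p = 0.0137), which are named after their values were seen. That is 4.76% of the 42, near the 4.99% of all probes. In deleted cells 24 of 42 passed, 19 of them lower, with a median of -0.50 against -0.14 for all probes. Deletion under PBS gave 1 call, Dlx4os (-1.43, SE 0.31, adjusted p = 0.0475), also named after its value was seen, where 0.997% of all probes were lower, and deletion under CoCl2 gave 32, with 25 lower, which is 76.2% and 59.5% of the 42 against 67.1% and 36.4% of all probes. A fall in deleted cells was thus shared by 45.2% of opposite-strand probes, against 32.9% of all probes.

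Among 152 tested probes of other curated noncoding records with an established gene symbol, 5 passed with CoCl2 in floxed cells. Gata6os, Alg13 (-0.77) and Rnf227 (-1.32) were lower, and Mir22hg (0.76) and Wincr1 (0.93) were higher, with limma adjusted p of 0.0137 to 0.0253. This is 3.29% of the class, below the 4.99% of all probes, of which 2.69% were lower and 2.3% higher. In deleted cells 78 passed, 53 of them lower, a share of 51.3% against 52.8% of all probes, with a median of -0.17. Deletion under PBS gave 6 calls, all lower (3.95%, against 1.52% of all probes called and 0.997% called lower), and deletion under CoCl2 gave 99, of which 57 were lower (65.1%, against 67.1% of all probes).

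Profiles over the 12 arrays were compared by the root mean square of the log2 differences, after each probe's own mean was subtracted, among 164 other probes with an established symbol. Nearest to Bcor were Rnf227 (0.37), Zeb2os (0.44), Slfn10-ps (0.45), a pseudogene of the Schlafen family, Pdxk-ps (0.51), a pyridoxal kinase pseudogene, and Gata6os (0.52), on the opposite strand at the Gata6 locus. Nearest to Zeb2os were Trmt61b (0.33), a gene of mitochondrial tRNA methylation, Ftx (0.36), a noncoding RNA of the X-inactivation centre, Gata6os (0.37), Rnf227 (0.37) and Pdxk-ps (0.39). Zeb2os was thus among the 5 nearest to Bcor but not the reverse. Both were chosen for lower signal with CoCl2 in floxed cells, and those arrays enter the distance. Their nearness therefore follows in part from the choice. Over all probes, 461 of 70908 probes lay nearer to Bcor than Zeb2os did, and 4593 lay nearer to Zeb2os than Bcor did. Without the 3 arrays of deleted cells with CoCl2, 4 of the 5 nearest to Bcor and 3 of the 5 nearest to Zeb2os were the same, and the 2 lay 0.47 apart.

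The genes with like profiles had different values with CoCl2 in the 2 genotypes, but the difference between genotypes was not tested for them. Values in deleted cells also depend on the scaling. The median change of all probes there ran from -1.21 to -0.007 under the 8 other scalings. Rnf227 had a mean of -1.37 in floxed cells with PBS and -2.69 with CoCl2, and of -1.33 and -1.83 in deleted cells, so that its difference was -1.32 in floxed and -0.50 in deleted cells, beside -1.12 and -0.51 for Zeb2os. Gata6os differed by -1.36 in floxed and by -0.25 in deleted cells. Slfn10-ps had differences of -1.39 and -1.11, nearer to those of Bcor, and Pdxk-ps had the larger difference in deleted cells (-0.52 in floxed, -1.09 in deleted). Trmt61b (-0.47 and -0.26) and Ftx (-0.53 and -0.02) lay near Zeb2os with smaller differences. The means of Trmt61b in deleted cells were -3.62 with PBS and -3.88 with CoCl2. Both are below the -3.40 at which the lowest detected probes of the deleted CoCl2 arrays lay. The size of its difference in deleted cells is therefore not a measured one. These genes were chosen for their likeness, so their values are a description.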

How the data were processed

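The deposited scanner files give linear spot intensity and name Agilent Feature Extraction 11.5.1.1, per the file headers, where the submitters' processing notes have version 9.1. A deposited table of log2 values served as an alternative, and no source here says how the authors made it. Processed intensity, already corrected for background per the file headers, was turned to log2. Outlier spots were dropped, spots of a probe were averaged, and the 75th percentile over 175906 spots outside controls was subtracted. Of 97836 probes, the 70909 that every array of at least 1 group showed well above background were tested with limma 3.58.1 in R 4.3.3 on 12 arrays (1 coefficient per group, two-sided, Benjamini-Hochberg, threshold 0.05). Residual and prior degrees of freedom were 8 and 3.51, and the fit was first tested on simulated data. With 3 arrays per group, precision is limited.

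Symbols came from RefSeq tables of GRCm38.p6 (842 of 873 curated and 3816 of 12146 predicted noncoding records matched, without version numbers, and 1209 of 15675 RIKEN clones). The 39027 catalogue probes have no gene name here. Array coordinates were not used, since the file headers give mm9 as the build of the design.

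Members, gene lists and comparisons were chosen with earlier results of these data known. Named genes are the 2 transcripts, tested probes of both loci and of the repressor lists (up to 10 that passed and 5 that did not per comparison), the 5 nearest profiles and the matched cell markers. The alternative background correction used median spot signals, since the files hold no mean signal. Titles number the arrays. Deviations from the group means correlated between same-numbered floxed arrays (0.396 to 0.452) and not between all same-numbered deleted arrays (-0.144 to 0.285). Arrays with different numbers were not compared, so whether the numbers stand for pairs was not tested. Correlations between arrays of a group were 0.969 to 0.994 across probes, and no 2 arrays were counted as 1.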

Additional observations from a re-analysis of the deposited data

Results flagged for a closer look

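The CoCl2 effect differed between genotypes for 1 probe beside Bcor. For the Gm39496 probe of record XR_878060 the effect in deleted cells minus that in floxed cells was -2.112 on the log2 scale (SE 0.387, n = 3 per group, limma adjusted p = 0.00525). In deleted cells with CoCl2 all 3 arrays had this probe not well above background, so the size of this difference is not a measured one. The other 2 probes of Gm39496 gave differences of -0.47 (SE 0.37) and -0.64 (SE 0.47), with adjusted p of 0.374 and 0.345. They were well above background on 0 and 1 of the 3 arrays of deleted cells with CoCl2 and dim with PBS. The size of their differences is therefore not a measured one either.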

How the results depend on the processing

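The fall of Bcor with CoCl2 in deleted cells passed the threshold in 32 of 32 alternatives (log2 change -2.38 to -0.82, adjusted p 5.52e-06 to 0.0227). Its lower level in floxed cells kept its direction in 32 of 32 (-1.64 to -1.03), and so did that of Zeb2os in 29 of 29 (-1.31 to -0.62), where normexp with quantile normalization gave the smallest differences of both, -1.03 and -0.62. The fall of Zeb2os in deleted cells kept its direction in 29 of 29 and its call in 12. It was lost with quantile normalization (-0.057), normexp with quantile normalization (-0.072), 10 E1A control probes (-0.43), slide as a fixed (-0.33) or random block (-0.48, adjusted p = 0.0795), and, at an unmoved -0.51, without a filter (adjusted p = 0.0577), with only the 6 arrays compared (0.0923) and with a trended robust variance (0.0763). Leaving out 1 array gave -0.69 to -0.36 and ended the call for 9 of 12 arrays; without deleted CoCl2 array 2, which was scanned apart from the others, it was -0.49 (adjusted p = 0.0886), and Bcor was at -1.40 (adjusted p = 0.00105). The cause of these losses was not tested. With the replicate block, Zeb2os in deleted cells had an adjusted p of 0.0394 and Bcor of 0.00109, and within genotype 0.0285 and 0.00208, so pairing changed no call of either.

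Deletion under CoCl2 moved with the scaling: Bcor and Zeb2os were at 0.29 and 0.21 with the percentile over probes detected on all arrays, 1.07 and 1.26 with quantile normalization, 1.01 and 0.94 with 10 E1A probes, 0.085 and 0.009 with the 4 brightest, and -0.63 and -0.70 with the 4 that moved together; with slide as a fixed block Zeb2os was at 0.74. Deletion under PBS moved to 0.18 for Bcor and -0.39 for Zeb2os with those 4 probes, and to 0.14 for Zeb2os with all 10. The same 4 probes turned the value of the Zeb2 clone with deletion under CoCl2 to -0.25, of the Med14 clone to -0.75, of the Ncor1 clone to -1.07 and of the Kdm4c clone to -1.09, and with CoCl2 in deleted cells to -0.78 for Ncor1 and -0.94 for Kdm4c. Quantile normalization turned the Gm39496 record XR_878059 with deletion under CoCl2 to 0.63. E1A probes did not all move together: 1 of the 4 brightest, a22, was at a mean log2 signal of 9.25 in deleted cells with CoCl2 and 11.4 with PBS.

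Of the counts, locus and neighbour probes in deleted cells went from 3 to 0 with 5 genes on each side, 5 with the 4 E1A probes that moved together and 1 with the filter on all 12 arrays. With deletion under CoCl2 they went from 3 to 1 with 5 genes on each side, 6 without a filter or with those 4 probes, 5 with the 4 brightest, and 2 to 5 when 1 array was left out. From 0 they reached 1 in floxed cells with normexp and 1 for deletion under PBS with only the 6 arrays. Listed repressor clones went from 0 to 2 in deleted cells with the 4 probes that moved together (0 to 1 without 1 array). With deletion under CoCl2 they went from 1 to 0 with the percentile over detected probes, the 4 brightest E1A probes or slide as a fixed block, 3 with 10 E1A probes and 2 with the 4 that moved together. Opposite-strand probes in deleted cells went from 24 to 37 with those 4 probes, 8 with slide as a fixed block and 11 with the filter on all 12 arrays, and with deletion under CoCl2 from 32 to 12 and 15 with the last 2. In floxed cells their count of 2 became 1 with 1 feature per symbol, without a filter, with only the 6 arrays, with 10 or the 4 co-moving E1A probes or with slide as a random block, 0 with slide as a fixed block, and 0 to 3 when 1 array was left out. For deletion under PBS their count of 1 became 3 with the percentile over detected probes, 2 with normexp, 6 with only the 6 arrays, 4 with the E1A probes that moved together, 7 with the 4 brightest, 0 with quantile normalization, 10 E1A probes, slide as a random block or the filter on all 12 arrays, and 0 to 4 when 1 array was left out. The percentile over probes, 1 feature per symbol and the 4 E1A probes that moved together were chosen after seeing the data. With the filter on all 12 arrays Zeb2os was not tested, and the block within genotype gives no deletion contrast. Zeb2os was not well above background on 1 of 12 arrays.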
